A study of Mus musculus with 8 samples.

Results

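Lysosomal genes were examined in Tregs, regulatory T lymphocytes that carry the transcription factor FoxP3 and restrain immune responses. The set holds 42 genes of 19937 tested: 17 subunits and accessory proteins of the vacuolar proton pump (V-ATPase), 16 hydrolases and activators, 2 cystatins and 7 lysosomal membrane or transport proteins. The genes were listed by name, and each was represented by the probe set annotated to that symbol alone, or, where there were several, by the one with the highest mean over all arrays. All 42 had such a probe set. The sorted FoxP3+ cells were taken from mice of 2 genotypes, wild type (WT) and Bcl6-/-, the latter labelled as a knock-out (KO) of Bcl6, a BTB zinc finger repressor that directs follicular helper T cells. Cells of both genotypes received antibodies to CD3 and CD28 during the 16 h before lysis, and each of 8 whole-transcript arrays took 100 ng of RNA. Each group had 4 arrays, from preparations 1 and 2 with an array A and an array B each. The sources used here do not give age, sex, strain or the deleted part of Bcl6. Whether preparations and letters stand for separate mice is not labelled either, so p-values measure no more than the spread between these samples, and that spread may be technical.

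The lysosome is an acidic organelle that breaks down proteins, lipids and sugar chains. Its acidity comes from the V-ATPase, a rotary pump whose cytosolic V1 part splits ATP and whose membrane V0 part moves protons. In T cells lysosomes and related granules also hold cytotoxic enzymes, and their surface is where nutrients are sensed by mTORC1. Many lysosomal genes carry the element bound by the factors TFEB and TFE3, whose core is the E-box CACGTG.

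Several values of the whole series bear on these genes. Log2 values had an SD over the probe sets of 1.84 and 1.87 in the KO 1 arrays, 1.61 and 1.65 in the KO 2 arrays and 1.56 to 1.70 in the WT arrays. Bcl6 itself was at 8.51 to 9.0 with the KO label and 7.86 to 8.36 in WT, and since the deleted part is not known here, this does not check the labels, and the arrays are called KO-labelled. For 3 Y-linked genes (Uty, Kdm5d, Eif2s3y) the mean log2 level ran from 4.62 to 4.80 with the KO label and from 6.94 to 8.30 in WT. These ranges do not overlap, so in every difference between the groups the KO label and whatever sets the Y-linked level, the sex of the mice included, cannot be told apart. For the 7 Treg and T cell markers the mean log2 level was 10.74 to 11.35 in the KO-labelled and 10.05 to 10.77 in the WT arrays, with a median log2 difference of 0.55 (0.69 for KO 1, 0.42 for KO 2). Every KO-labelled array exceeded WT for 3 of the 7 (6.67% of all genes): Foxp3 (0.84), the IL-2 receptor chain Il2ra (1.49) and the checkpoint receptor Ctla4 (0.93). These 3 had an unadjusted p under 0.05 (5.65% of all genes higher), and limma called 0 of the 7 over all genes. Markers of monocytes, macrophages and neutrophils (14 of 16 measured) had a mean log2 level of 6.41 to 6.69 in the KO-labelled and 6.35 to 6.70 in the WT arrays, those of dendritic cells (8 of 8) 6.34 to 6.6 and 6.23 to 6.59, and those of B cells (5 of 6) 5.91 to 6.14 and 5.92 to 6.18. A log2 array value has no true zero, so none of these markers can be called absent. Their part in the lysosomal results was not tested.

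E-box matches are shown first because a part of the set holds them. Promoters (250 bases before to 50 after a gene's start) were found for 32 of the 42 members in RefSeq sequence of build GRCm38.p6. The 10 unmatched are Atp6v0d2, the member with the largest difference between the groups, Atp6v0a2, Atp6v1b2, Atp6v1c1, Atp6v1g1, Atp6v1h, Ctsb, Ctsh, Ctsw and Npc1, and none of them enters the counts. The 6 letters CACGTG, which read the same on both strands, occurred in 10 of these 32 genes, or 31.2%, against 8.09% of 27025 genes with a promoter in the same table. The longer palindrome TCACGTGA, which contains the former, occurred in 6 of the 32, or 18.8%, against 1.12% of all. The windows below lie before the start of transcription, run 5′ to 3′ on the gene's strand, and have each CACGTG in capitals. Lamp1, with 4 matches in the 75 bases before its start, and Gla, Ctsa, Ctsd, Lgmn, Atp6v0b and Atp6v1a are shown, and Ctsl is shown because its difference between the groups had the opposite sign.
Lamp1 (chr8:13159086-13159160, plus strand): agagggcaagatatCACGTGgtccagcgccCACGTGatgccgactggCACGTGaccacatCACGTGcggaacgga
Gla (chrX:134601179-134601253, minus strand): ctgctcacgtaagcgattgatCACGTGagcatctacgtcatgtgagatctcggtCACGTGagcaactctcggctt
Ctsa (chr2:164833698-164833772, plus strand): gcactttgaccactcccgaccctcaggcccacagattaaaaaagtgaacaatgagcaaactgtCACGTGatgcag
Ctsd (chr7:142387905-142387979, minus strand): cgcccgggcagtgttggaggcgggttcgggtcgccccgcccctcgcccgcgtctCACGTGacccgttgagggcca
Lgmn (chr12:102439121-102439195, minus strand): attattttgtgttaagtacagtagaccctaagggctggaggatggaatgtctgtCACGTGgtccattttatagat
Atp6v0b (chr4:117887330-117887404, minus strand): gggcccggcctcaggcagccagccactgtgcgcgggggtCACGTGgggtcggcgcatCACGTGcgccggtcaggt
Atp6v1a (chr16:44139370-44139444, minus strand): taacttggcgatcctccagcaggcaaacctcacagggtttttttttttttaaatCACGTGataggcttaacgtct
Ctsl (chr13:64370736-64370770, minus strand): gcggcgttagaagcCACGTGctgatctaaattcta

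A match is a stretch of letters and not a measured binding site. The 10 genes with CACGTG had a median log2 difference (KO-labelled minus WT) of 0.77, from -0.40 to 1.45, and the 22 matched members without it a median of 0.66, from -0.23 to 1.74. For the 6 genes with TCACGTGA, namely Atp6v0d1, Atp6v0e, Atp6v1a, Ctsa, Ctsd and Gla, the median was 0.88, from 0.52 to 0.98. The 26 matched members without it had a median of 0.62, from -0.40 to 1.74. Groups of such unequal size cannot be compared by their ranges, and the medians were not tested against each other. Cst7, at the upper end of the 22, had no match in its promoter.

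In bulk samples fewer cells that express a gene and less of its RNA per cell cannot be told apart. Setting KO-labelled against WT cells asks which of these genes are at another level in cells labelled as lacking Bcl6. The 1 member that passed was Atp6v0d2, a V0 stalk subunit best known from osteoclasts, 3.42-fold higher (limma adjusted p = 0.0465). This call was close to the threshold and was lost in 12 of 27 alternatives. The remaining 41 did not pass the test, although 38 of the 42 differences were above 0 (43.2% of all genes), and the largest of those that missed the threshold were Cst7, Lamp2, Ctsz and Lgmn. At the median over members the difference was 1.17 in KO 1, whose arrays have the wide SD, and 0.25 in KO 2. In 3 members KO 1 was below KO 2: Atp6v0d2 (1.44 in KO 1, 2.11 in KO 2), Atp6v0e2 and Cd63. A mean log2 level of at least 6 was reached by 41 members and by 15679 of all 19937 genes. Among those 15679, 8.01% had every KO-labelled array above every WT array. The shares of all genes thus include more dim genes, and differing SDs can widen differences for bright ones. With the array SD as covariate the median difference was 0.09 for the V-ATPase and 0.31 for the hydrolases. The part of the level was not tested. The KO 1 mean exceeded the WT mean in 39 members (42.7% of all genes) and the KO 2 mean in 37 (56.7%). With limma and Benjamini-Hochberg adjustment over all 19937 genes, 1 member was called higher, against 0.12% of all genes, and 0 lower, against 0.015%. At an unadjusted p under 0.05, limma gave 19 members higher and 0 lower, against 5.65% and 0.542% of all genes.

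In 18 members every KO-labelled array lay above every WT array, 42.9% of the set against 6.67% of all genes, and in 0 every KO-labelled array lay below, against 2.11%. In a further 20 members both KO 1 arrays lay above all WT arrays while the KO 2 arrays did not, a pattern of 27.3% of all genes. Taken alone, both KO 1 arrays exceeded all WT arrays in 38 members, where 34% of all genes did so, and lay below them all in 1, Atp6v0e2 (42.8%). Both KO 2 arrays exceeded all WT arrays in the 18 named first, against 9.54% of all genes, and lay below them all in 1, Ctsl (4.75%). The KO 2 arrays had an SD within the WT range, and the part of the array SD in these counts was not tested. In 0 members did the KO preparations lie on opposite sides of all WT arrays, with KO 1 above (0.772% of all genes) or KO 2 above (1.06%). After quantile normalization, which gives all arrays the same distribution, the count above WT was 20 for KO 2 (9.58% of all genes), 34 for KO 1 (32.1%) and 20 for both together (7.36%), with 1 member below (4.73%). On that scale 37 differences were above 0 (47.7%), and limma called 4 members higher (0.607%), namely Atp6v0d2, Ctsz, Lgmn and Npc1, and 0 lower (0.181%).

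**Figure D1:**
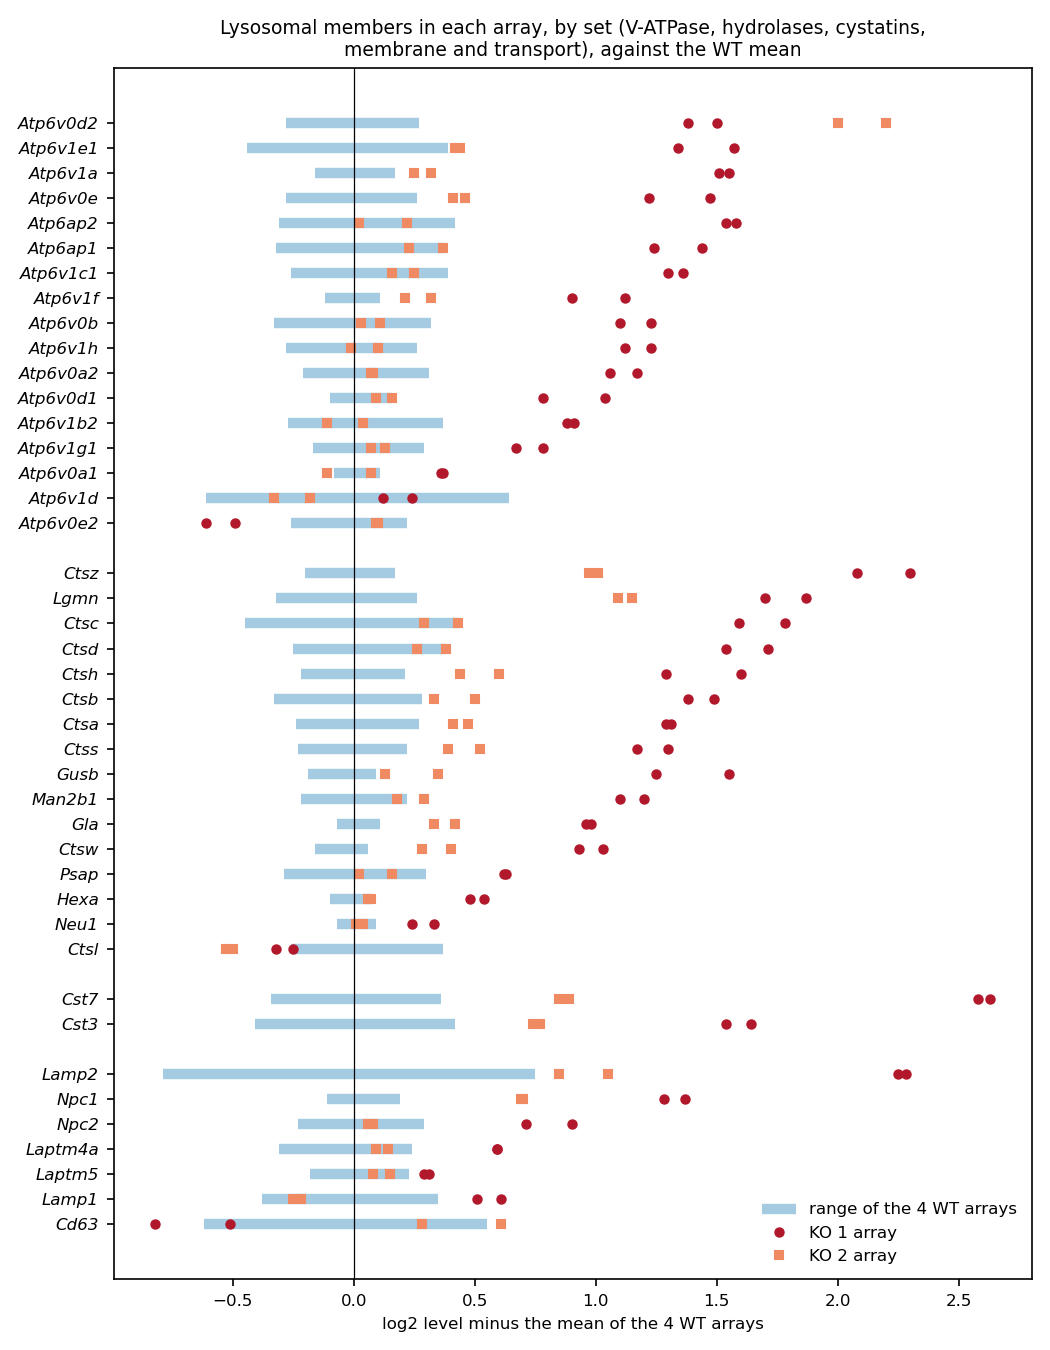
Each point is an array of the KO-labelled group (dark circles KO 1, light squares KO 2), as its log2 level minus the mean of the 4 WT arrays, and the blue bar is the range of the WT arrays; one row is one gene, and gaps separate the V-ATPase, hydrolases, cystatins, and membrane and transport proteins. KO 1 arrays lie right of the bar in 38 of 42 rows and KO 2 arrays in 18, and Atp6v0d2 is the row where KO 2 lies farthest to the right.

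The median log2 difference over the 42 members was 0.68, with 1.17 in KO 1 and 0.25 in KO 2, each against the WT mean, while the median over all genes was -0.06, with -0.13 and 0.02. For the 17 V-ATPase members the medians were 0.62 in all, 1.17 in KO 1 and 0.11 in KO 2. For the 16 hydrolases and activators they were 0.83, 1.27 and 0.35. The 7 membrane and transport members had 0.35, 0.58 and 0.11. Quantile normalization lowered the medians to 0.37 for the V-ATPase, 0.60 for the hydrolases and 0.11 for the membrane and transport members. The KO 1 medians became 0.66, 0.82 and 0.15 and those of KO 2 0.11, 0.34 and 0.06. Leaving out WT 1A took the membrane and transport median to 0.21. Whether the V-ATPase and hydrolase medians differ from each other was not tested.

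Both KO 1 arrays exceeded both KO 2 arrays in 39 of 42 members, against 39% of all genes, and were below them in 3, against 50.3%. The 3 were Atp6v0d2, Atp6v0e2 and Cd63. After quantile normalization KO 1 was above KO 2 in 35 members, against 41.5% of all genes, and below in 5, against 32%. The WT arrays differed among themselves too. The median over members of the level minus the gene's mean over 8 arrays was -0.51 in WT 1A and -0.49 in WT 2B. It was -0.10 in WT 1B and -0.25 in WT 2A. The WT spread thus did not follow the preparation number, but these medians rose in the order of the array SDs. Those SDs were 1.56 in WT 1A, 1.58 in WT 2B, 1.62 in WT 2A and 1.70 in WT 1B. In the KO-labelled arrays the median over members was 0.86 and 0.76 in KO 1 (SD 1.87 and 1.84). It was -0.04 and -0.10 in KO 2 (SD 1.65 and 1.61). The part of the array spread in these differences was not tested beyond the scaling values given.

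**Figure D2:**
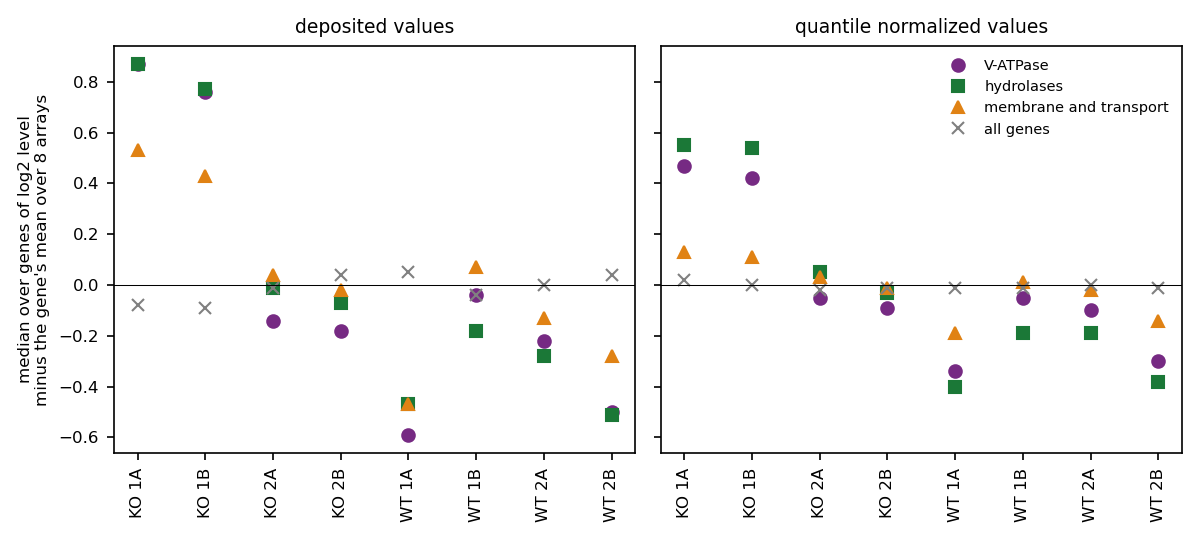
Each point is the median, over the genes of a set, of the log2 level in an array minus the gene's mean over the 8 arrays, with deposited values on the left and quantile normalized values on the right. The KO 1 arrays stand at 0.76 to 0.87 for the V-ATPase and hydrolases as deposited and at 0.42 to 0.55 after normalization. As deposited, the KO 2 arrays stand at -0.14 and -0.18 for the V-ATPase, within the WT range of -0.59 to -0.04. They are also within the WT range for the membrane and transport members. For the hydrolases they stand at -0.01 and -0.07, above the WT range of -0.51 to -0.18.

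Of the V0 members, which form the membrane ring and its stalk, Atp6v0d2 was at 8.40, 8.28, 9.10 and 8.90 in KO 1A, KO 1B, KO 2A and KO 2B. The WT values were 6.75, 7.17, 7.05 and 6.62 in WT 1A, WT 1B, WT 2A and WT 2B. The groups did not overlap, and KO 2 was the higher of the KO preparations. The log2 means were 8.67 ± 0.40 and 6.90 ± 0.26 (SD, n = 4 each), and the log2 difference was 1.77 (SE 0.30, limma adjusted p = 0.0465). It was 1.44 in KO 1 and 2.11 in KO 2. The call stood close to the threshold: 15 of 27 alternatives kept it and 12 did not, with log2 differences of 1.44 to 2.11 throughout. Among the 8 fits without 1 array, those leaving out KO 1B (adjusted p = 0.0637), KO 2A (0.0607), WT 1A (0.0799), WT 2A (0.0662) or WT 2B (0.0981) ended the call. Leaving out both WT 1 arrays gave an adjusted p of 0.564 and both WT 2 arrays 0.999. Median centring (0.0803), a block by array letter (0.0769), a fit with no variance trend (0.063) and a fit over all probe sets (0.0598) also ended it. Quantile normalization together with preparation means did so as well (0.432), and over all alternatives the adjusted p ran from 6.75e-08 to 0.999. The lowest came without KO 2, where 36.3% of all genes were called higher and 48.5% lower. That fit, the one without KO 1 and the one with the SD covariate kept the call, but with negative block correlations, which make their SEs small. Fits with no random block, which also kept it, took arrays A and B of a preparation as independent.

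**Figure D3:**
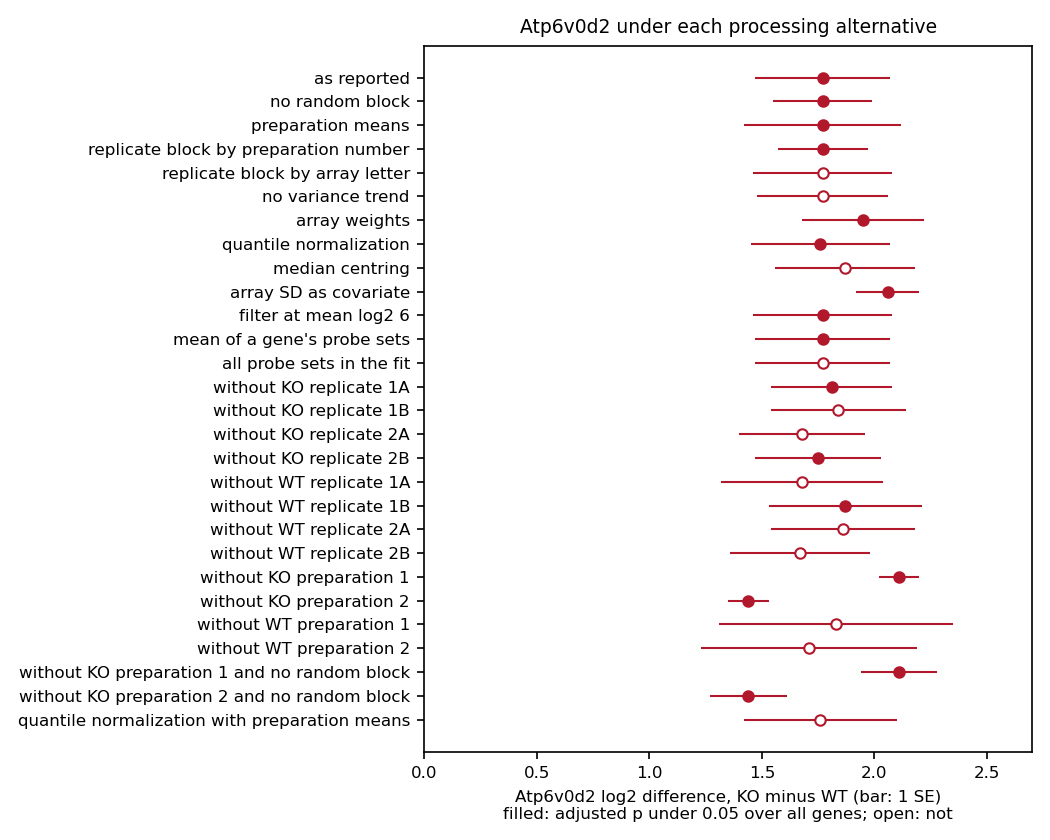
The x axis is the log2 difference of Atp6v0d2 between KO-labelled and WT arrays with its SE as a bar, and each row is a fit; filled points had an adjusted p under 0.05 over all features of that fit. The difference stays between 1.44 and 2.11 in every fit drawn, while 12 of the 27 alternatives are open points.

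The other d isoform, Atp6v0d1, the form found in most cells, was at 8.90 and 8.64 in KO 1 and 8.02 and 7.95 in KO 2, against 7.81, 8.02, 7.85 and 7.76 in WT. Here KO 1 was above all WT arrays and KO 2 overlapped them, and the log2 difference of 0.52 (SE 0.28, limma adjusted p = 0.701) did not pass. Atp6v0e, a small membrane subunit, was at 10.62, 10.37, 9.61 and 9.56 in the KO-labelled and 8.99, 9.41, 9.32 and 8.87 in the WT arrays. Its groups did not overlap, and the difference was 0.89 (SE 0.35, limma adjusted p = 0.701). Its paralog Atp6v0e2 was at 7.02, 7.14, 7.73 and 7.72 in the KO-labelled arrays and 7.85, 7.37, 7.46 and 7.85 in WT. KO 1 was below all WT arrays and KO 2 within them, with a difference of -0.23 that did not pass and turned to 0.10 without KO 1.

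Atp6v0a1 and Atp6v0a2 encode forms of the large subunit that leads protons through the membrane. Atp6v0a1 was at 7.60, 7.61, 7.13 and 7.31 in the KO-labelled and 7.35, 7.16, 7.19 and 7.24 in the WT arrays, and its difference was 0.17. Atp6v0a2 was at 9.63, 9.52, 8.53 and 8.54 against 8.28, 8.77, 8.52 and 8.25, a difference of 0.60. For each, KO 1 was above all WT arrays and KO 2 overlapped them. A second probe set of Atp6v0a2, not used because of its lower mean, went the other way, at -0.32, so the direction of this gene depends on the probe set. Atp6v0b, a proton-carrying ring subunit, differed by 0.62, again with KO 2 at 0.07. None of these 3 passed the test.

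Of the 8 V1 members, which form the ATP-splitting head and its stalks, 7 had a difference above 0 (43.2% of all genes) and 0 passed (0.12% higher). Atp6v1e1, a stator subunit, was at 9.80, 9.57, 8.65 and 8.67 in the KO-labelled and 7.79, 8.62, 8.49 and 8.02 in the WT arrays. Atp6v1a, the catalytic subunit, was at 9.85, 9.81, 8.62 and 8.55 against 8.15, 8.44, 8.47 and 8.14. Neither gene's groups overlapped, though KO 2 cleared WT by a narrow margin. Their log2 differences were 0.94 (SE 0.41) and 0.91 (SE 0.35), each with a limma adjusted p of 0.701. Atp6v1f was the third V1 member without overlap, at 0.63, and both its probe sets gave a like value (0.66 in the other). Atp6v1c1, a regulatory subunit, differed by 0.77, Atp6v1h by 0.61, Atp6v1b2, the other subunit of the head, by 0.43 and Atp6v1g1 by 0.42, with overlapping groups. The stalk subunit Atp6v1d, at 9.74, 9.62, 9.32 and 9.17 against 8.89, 10.14, 9.69 and 9.29, differed by -0.04, and its WT range covered every KO-labelled array. The accessory proteins Atp6ap1 and Atp6ap2, which help to assemble the pump, differed by 0.82 and 0.84, with 1.34 and 1.56 in KO 1 and 0.31 and 0.11 in KO 2, and did not pass.

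The proteases had the highest median of the role groups with more than 2 members: 0.95 over 10 genes, with 1.44 in KO 1 and 0.43 in KO 2. In 7 of the 10 every KO-labelled array exceeded WT (6.67% of all genes). An unadjusted p under 0.05 was reached upward by 9 (5.65%), and 0 passed over all genes (0.12% higher). Ctsz, the carboxypeptidase cathepsin Z, was at 11.53, 11.31, 10.24 and 10.20 in the KO-labelled and 9.16, 9.40, 9.32 and 9.03 in the WT arrays. The groups lay well apart, at 10.82 ± 0.70 and 9.23 ± 0.16 log2 (SD, n = 4 each). The difference was 1.59 (SE 0.36, limma adjusted p = 0.186), 2.19 in KO 1 and 0.99 in KO 2. Lgmn, legumain or asparaginyl endopeptidase, which cuts after asparagine and activates cathepsins, was at 8.78, 8.95, 8.17 and 8.23 in the KO-labelled arrays. In WT it was at 7.33, 7.34, 6.90 and 6.76. The gap between the groups was wider than the range within either, and the log2 difference of 1.45 (SE 0.27, limma adjusted p = 0.0671) just missed the threshold. It was 1.78 in KO 1 and 1.12 in KO 2, so the preparations were closer for Lgmn than for Ctsz.

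The cathepsins of endosomal protein breakdown gave smaller values. Ctsb differed by 0.92, Ctsd, an aspartic protease, by 0.98, Ctsa, which also protects other lysosomal enzymes, by 0.87 and Ctss, known for invariant chain cleavage, by 0.85. Ctsc, which activates granzymes, differed by 1.02, with 1.68 in KO 1 and 0.36 in KO 2. Ctsh, an aminopeptidase, differed by 0.98 and Ctsw, a cathepsin of cytotoxic lymphocytes, by 0.66. Adjusted p values of these 7 ran from 0.51 for Ctsh in limma to 0.701. Of the 7, Ctsc and Ctsd had KO 2 arrays overlapping WT.

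Ctsl, cathepsin L, went the other way. It was at 8.38, 8.31, 8.10 and 8.13 in the KO-labelled and 8.37, 9.0, 8.56 and 8.61 in the WT arrays. KO 1A overlapped WT 1A by a margin of 0.01 on the rounded values, and both KO 2 arrays lay below all WT arrays. The log2 difference was -0.40 (SE 0.28, limma adjusted p = 0.701), or -0.29 in KO 1 and -0.52 in KO 2, and did not pass. Among the proteases, Ctsl was thus the one member of 10 with a difference below 0.

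The cystatins, inhibitors of some of these proteases, both had groups that did not overlap, with the KO-labelled arrays higher (6.67% of all genes). Cst7, cystatin F of granule-bearing lymphocytes and myeloid cells, which restrains cathepsin C, was at 11.17, 11.12, 9.43 and 9.39 in the KO-labelled arrays and 8.42, 8.90, 8.65 and 8.20 in WT. The difference was 1.74 (SE 0.45, limma adjusted p = 0.33). It was the member with the largest gap between KO preparations, 2.61 in KO 1 and 0.87 in KO 2. Cst3, the secreted cystatin C, was at 10.65, 10.55, 9.78 and 9.75 against 8.82, 9.43, 9.19 and 8.60. Its difference was 1.17 (SE 0.38, limma adjusted p = 0.52), 1.59 in KO 1 and 0.76 in KO 2. Since Cst3 and several cathepsins are also abundant in dendritic cells and macrophages, the marker lists are given here. Their median log2 differences were -0.13 (-0.35 for KO 1, 0 for KO 2) and -0.01 (-0.08 for KO 1, 0.07 for KO 2). Limma called 0 of their 8 and 14 genes. At an unadjusted p under 0.05, 1 dendritic and 0 myeloid markers were higher (5.65% of all genes). The class II gene H2-Aa was that 1 marker, at 8.14, 8.31, 7.05 and 6.90 in the KO-labelled and 6.76, 6.33, 6.69 and 6.66 in the WT arrays. The dendritic marker Itgax was at 5.95 to 6.19 in the KO-labelled and 5.79 to 6.23 in the WT arrays. Among the 14 myeloid markers, 1 had every KO-labelled array above WT (6.67% of all genes), and 0 had every one below. That marker was Lyz2, at 6.65, 7.23, 6.70 and 6.77 in the KO-labelled and 6.51, 6.39, 6.39 and 6.63 in the WT arrays. The part of such cells in the lysosomal differences was not tested.

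The glycosidases and activators differed by 0.52 at the median (0.80 for KO 1, 0.16 for KO 2), and 0 of 6 passed (0.12% of all genes higher). Gusb, beta-glucuronidase, differed by 0.82 and Gla, alpha-galactosidase A, by 0.67, with non-overlapping groups for both. Man2b1, alpha-mannosidase, differed by 0.69, Psap, the precursor of the saposins, by 0.36, Hexa, a beta-hexosaminidase chain, by 0.29 and Neu1, a sialidase, by 0.15. For these 4 the KO 2 arrays overlapped WT. Neu1 turned to -0.03 after quantile normalization. No member of this group had a difference below 0 as deposited, while 43.2% of all genes had one above 0.

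Membrane and transport members were mixed. Lamp2, a structural membrane protein needed for fusion with autophagosomes, was at 10.09, 10.06, 8.86 and 8.66 in the KO-labelled and 7.02, 8.56, 8.02 and 7.66 in the WT arrays. The groups did not overlap, but the WT arrays spread over a wide range, and the difference of 1.61 (SE 0.57, limma adjusted p = 0.617) did not pass. Npc1, which exports cholesterol from lysosomes, was at 9.69, 9.60, 9.01 and 9.02 against 8.30, 8.51, 8.25 and 8.21. Its WT arrays were tight, all KO-labelled arrays lay above them, and the difference was 1.01 (SE 0.26, limma adjusted p = 0.319), 1.33 in KO 1 and 0.69 in KO 2. Its soluble partner Npc2 differed by 0.44, with KO 2 at 0.08.

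Lamp1, the other abundant membrane protein of the lysosome and a marker of degranulation, differed by 0.16, with 0.56 in KO 1 and -0.24 in KO 2, and by -0.13 after quantile normalization. The direction of Lamp1 therefore flipped with preparation and scaling. Laptm5 and Laptm4a, small transmembrane proteins, differed by 0.20 and 0.35. Cd63, a tetraspanin of lysosomes and exosomes, was at 5.39, 5.08, 6.51 and 6.18 in the KO-labelled and 6.45, 5.46, 5.28 and 6.43 in the WT arrays. High and low values occurred in both groups, and the difference was -0.11 (SE 0.52, limma adjusted p = 0.907).

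**Figure D4:**
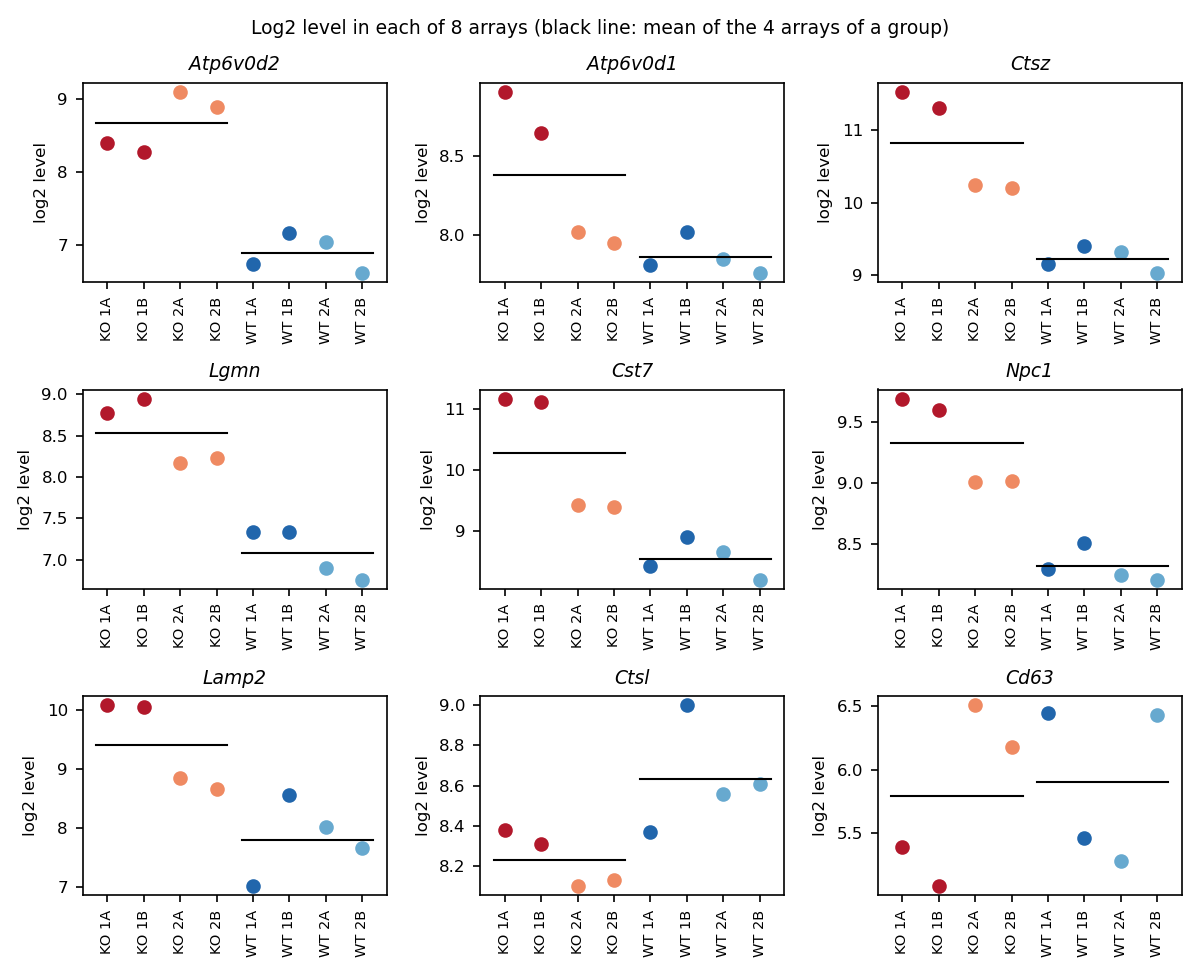
Each panel is a gene, with the log2 level on a y axis of its own range and the 8 arrays on the x axis; black lines are the means of 4 arrays. Atp6v0d2 is highest in KO 2 while Ctsz, Lgmn, Cst7, Npc1 and Lamp2 are highest in KO 1 and above WT in both preparations; Atp6v0d1 overlaps WT in KO 2, Ctsl lies low in KO 2, and Cd63 has no order by group.

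Other genes of the pathway were counted from lists of textbook members. Of 28 measured further lysosomal hydrolases, limma called 0, against 0.12% of all genes higher and 0.015% lower. An unadjusted p under 0.05 was reached upward by 5 (5.65% of all genes) and downward by 0 (0.542%). In 7 there was no overlap, with the KO-labelled arrays higher (6.67% of all genes). The median difference was 0.35 (0.64 for KO 1, 0.15 for KO 2). The 3 with the largest differences were Gm2a, the activator of ganglioside breakdown, at 1.90 (adjusted p = 0.0829; the 1 gene of this list that limma called after quantile normalization), the carboxypeptidase Scpep1 at 1.64 and Asah1, acid ceramidase, at 1.11. Of 17 other membrane, transport and sorting genes limma called 0 and had 1 upward below an unadjusted p of 0.05, near the 5.65% of all genes. Their median difference was 0.24. Slc15a3, a lysosomal peptide and histidine transporter, had the largest difference at 1.74 (limma adjusted p = 0.179). It was the 1 of the 17 called after quantile normalization, where 0.607% of all genes were called higher. Of 7 other V-ATPase subunits limma called 0, with 0 at an unadjusted p under 0.05 in either direction (5.65% of all genes upward, 0.542% downward). Their median was -0.09, and these include isoforms restricted to kidney, brain or testis. Tcirg1, the a3 subunit of osteoclasts and lymphocytes, was the one of these 7 with a difference above 0, at 0.46.

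Regulators of lysosomal genes and lysosomal nutrient sensing (15 measured) differed by 0.34 at the median (0.55 for KO 1, 0.07 for KO 2). Limma called 0 of them and had 1 upward and 0 downward below an unadjusted p of 0.05. These counts are near the shares of all genes, 5.65% and 0.542%. Tfeb differed by -0.03 and Tfe3 by 0.34, and Mitf, their relative, by -0.16, with adjusted p of 0.941, 0.701 and 0.749. The Rag GTPase Rragd was at 8.19, 7.95, 7.09 and 7.09 in the KO-labelled and 6.74, 6.92, 6.83 and 6.94 in the WT arrays, a difference of 0.72 without overlap that did not pass (adjusted p = 0.701). An array measures messenger RNA only, so TFEB activity, which is set by its place in the cell, was not measured.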

How the data were processed

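Messenger RNA of 8 Treg samples was measured on whole-transcript arrays. Each deposited value is a log2 level of a probe set; the submitters' processing notes name RMA and Partek as the authors' tools, without versions or filters. RMA commonly corrects background, normalizes between arrays and summarises probes, yet array SDs differed, which can widen differences for bright genes. The table held 28768 probe sets, with 0 missing values, and was used as deposited.

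Probe sets were named by the platform's annotation, parts of which may be outdated: 21771 probe sets had 1 symbol, 1557 several and 5440 none. The groups were tested in R 4.3.3 by limma 3.58.1 (lmFit, then eBayes with a variance trend), with preparation as a random block (estimated correlation 0.617), two-sided, Benjamini-Hochberg threshold 0.05 over 19937 genes. The test was tried on simulated data that held no difference in SD between arrays, so that trial does not check the fit for arrays such as these. SE is that of the log2 difference. No 2 arrays were identical.

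Members, lists, tests and alternatives were chosen with earlier results of these data known. All members are named. Values in every array are given for called members, the 2 highest differences and the lowest one below 0 in each of 5 groups (V0; V1 with accessory; proteases; glycosidases, activators and cystatins; membrane and transport), and the pairs Atp6v0a1 and Atp6v0a2, Atp6v0d1 and Atp6v0d2, Atp6v0e and Atp6v0e2, and Cst3 and Cst7. Pathway genes are named by size of difference, up to 3 a list. Tfeb, Tfe3, Mitf, Foxp3, Il2ra, Ctla4, H2-Aa, Itgax and Lyz2 were added after their values were seen. Alternatives changed the block, variance model, scaling, filter and probe set choice, or left out arrays or preparations; 3 fits were added after seeing the data, namely those without KO 1 or KO 2 and no random block and quantile normalization with preparation means. The number of arrays limits the precision.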

Additional observations from a re-analysis of the deposited data

Results flagged for a closer look

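Of 84 groups of 4 arrays (42 members in KO-labelled and WT arrays), 1 held an array far from the others by Dixon's criterion, which chance meets in about 1 of 20 groups. Ctsw was at 6.97 in WT 1B, against 7.16 for the nearest WT array.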

How the results depend on the processing

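Beside each count of members stands, in parentheses, the share of all genes under the same setting. The number of members higher, 1 as reported (0.12%), was 3 with no random block (0.461%), 12 with the preparation number as a replicate block (3.11%) and 2 with array weights (0.306%). It was 4 after quantile normalization (0.607%) and 17 with the array SD as covariate (8.02%). It was 0 with the array letter as a replicate block (0.0702%), no variance trend (0.105%), median centring (0.0602%) or all probe sets in the fit (0.104% of probe sets). It was also 0 without WT 1 (0.0401%), without WT 2 (0%), or with quantile normalization and preparation means (0.0201%). It was 15 without KO 1 (5.64%) and 38 without KO 2 (36.3%), and 3 (0.642%) and 36 (30.1%) in these cases with no random block. Without KO 2, where 48.5% of all genes were called lower, most genes of the arrays were called, so the count says little about the members. Leaving out 1 array gave 0 to 2 (0.0652% to 0.256%), with Lgmn added without KO 2B and Lamp2 without WT 1B. Members lower numbered 2 with the SD covariate (4.43%), 1 without KO 1 (1.71%), 3 without KO 2 (48.5%) and 1 without KO 2 with no random block (37%). The estimated block correlation was negative with the SD covariate (-0.367), without KO 1 (-0.629) and without KO 2 (-0.642), which makes those SEs small. Same-numbered arrays did not deviate together throughout (correlations -0.691 for 1A, 0.771 for 1B, -0.420 for 2A and 0.682 for 2B). For the means of same-numbered preparations the correlation was 0.416. These values do not settle whether the numbers are pairs, and the numbers were not taken as such.

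Members with every KO-labelled array above every WT array numbered 34 with preparation means (22.5%), 30 when these were quantile normalized (22.1%), 10 after median centring (4.88%), 38 without KO 2 with or without the block (34%) and 18 to 26 without 1 array (6.83% to 12.8%). Members with every array below numbered 1 with preparation means (17.6%), quantile normalization (4.73%), or without KO 1 (4.75%), KO 2 (42.8%) or WT 1 (10.9%), 3 with quantile normalization and preparation means (22.9%), and 0 to 1 without 1 array (2.26% to 8.94%). The V-ATPase median was 0.09 with the SD covariate, 0.11 without KO 1 and 1.17 without KO 2; the hydrolase median was 0.31, 0.35 and 1.27, and the membrane median 0.07 with the SD covariate, 0.11 without KO 1, 0.58 without KO 2 and 0.11 after quantile normalization.

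Some differences changed sign. With the SD covariate they were 0.00 for Atp6v0a1, 0.15 for Atp6v0e2, -0.11 for Atp6v1b2, -0.02 for Atp6v1h, -0.31 for Lamp1 and 0.54 for Cd63. Without KO 1 they were -0.02 for Atp6v0a1, 0.10 for Atp6v0e2, -0.03 for Atp6v1b2, -0.24 for Lamp1 and 0.44 for Cd63. After quantile normalization, with or without preparation means, they were -0.03 for Neu1, -0.13 for Lamp1 and 0.02 for Cd63. Atp6v1d was 0.05 with array weights, 0.06 after median centring and 0.18 without KO 2. Without 1 array, Atp6v1d ran from -0.34 to 0.26 (0.03 without KO 2B, 0.26 without WT 1B, 0.05 without WT 2A), Lamp1 from -0.02 (without WT 1A) to 0.33, and Cd63 from -0.38 to 0.14 (0.03 without KO 1B, 0.13 without WT 1A, 0.14 without WT 2B). The cause was not tested in any of these cases.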
